A study of Homo sapiens with 8 samples.

Results

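The cadherin switch and the mesenchymal state are followed here through 10 genes in the human cell line LK2, which comes from a lung squamous carcinoma, when DNp63 was overexpressed. DNp63 is an isoform of p63, a transcription factor, without the N-terminal activation domain. The genes were taken by name, and all 10 are among the 26760 genes of the count table: the cadherins CDH1, CDH2, CDH3 and CDH11, the transcription factors SNAI2, TWIST1, ZEB1 and ZEB2, and the fibronectin and vimentin genes FN1 and VIM. RNA sequencing covered 8 libraries in 4 groups of 2, all of LK2 cells grown in serum-containing RPMI-1640 medium and all carrying an expression vector. In the constitutive system, cells with a DNp63 vector were set against cells with a GFP vector, the first library of each group with the pLEX_306 vector and the second with pLEX_307. In the inducible system, all cells carried DNp63 in pLIX_403, and cells given doxycycline at 2 µg per ml for 6 days (induced) were set against cells without the drug (uninduced). No group received doxycycline without the DNp63 vector, so within the inducible system the drug and DNp63 cannot be told apart. The spread between the 2 libraries of a constitutive group thus includes the vector. For the inducible groups the labels do not state separate cultures, so the spread between their libraries may be technical. The main p-values of both systems use a spread shared by all 8 libraries, the constitutive ones included. The fit to the inducible libraries alone rests on their own spread.

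Cadherins are calcium-dependent adhesion proteins that join neighbouring cells and anchor, through catenins, to the actin cytoskeleton. In epithelial-mesenchymal transition (EMT), cells typically lose E-cadherin, encoded by CDH1, gain N-cadherin, encoded by CDH2, and take up mesenchymal filaments and matrix such as vimentin and fibronectin, an exchange known as the cadherin switch. The factors SNAI2 (Slug), ZEB1, ZEB2 and TWIST1 are known to drive this program and can repress CDH1. P-cadherin, encoded by CDH3, belongs to the basal layer of stratified epithelium, where p63 is the lineage factor, and CDH11 encodes OB-cadherin of mesenchymal and bone-forming cells.

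The libraries held 2758158 to 10372248 counts, and 12303 genes had enough counts to be tested. TP63, the overexpressed gene, stood at 1850.1 and 3816 CPM (counts relative to the scaled library size) in constitutive DNp63 libraries and at 0.739 and 1.91 CPM in GFP libraries, and at 412 and 422 CPM in induced libraries and 12.7 and 14.8 CPM in uninduced libraries. Replicates differed more in the constitutive system, where the median gene moved by 0.405 (DNp63) and 0.371 (GFP) on the log2 scale between the 2 libraries, than in the inducible system, at 0.22 (induced) and 0.17 (uninduced). The epithelial markers EPCAM, KRT8, KRT18 and KRT19 were at 320 CPM or more in all 8 libraries, and KRT7 had no count. Of the squamous markers besides TP63, KRT14 had no count. Over the 8 libraries KRT5 ran from 0 to 398 CPM, KRT6A from 2.22 to 557 and PKP1 from 0 to 33. DSG3 ran from 5.51 to 79.9 CPM and SOX2 from 68.3 to 575 CPM. These markers did not move together. By edgeR, averaged over both systems, KRT6A, PKP1 and DSG3 were called higher with DNp63 and KRT5 was not called (adjusted p = 0.202). SOX2 was called lower (log2 fold change −1.56; adjusted p = 0.0013). Markers of other cell types were low throughout. Of 9 fibroblast markers COL3A1, DCN and FAP were at 0 throughout, and 5, these included, never exceeded 3 counts in a library. The list summed to 17.1 to 30.8 CPM with constitutive DNp63, 18.4 to 21.4 CPM with GFP, 8.40 to 15.3 CPM induced and 16.2 to 17.5 CPM uninduced, and COL1A1 alone was at 8.28 to 29.1 CPM. The endothelial markers PECAM1 and CDH5 and the immune marker CD3E had no count, and those lists summed to at most 2.33 and 3.71 CPM in any library.

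Promoter sequences were at hand for 5 of the 10 genes (CDH2, FN1, VIM, ZEB1 and ZEB2). Those of CDH2 and FN1 are shown because these members moved in opposite directions under constitutive DNp63. Each is the 250 bases before the transcription start in RefSeq, build GRCh38.p14, read 5′ to 3′ on the gene's minus strand, at chr18:28177131-28177380 for CDH2 (1 of the 2 starts listed for it) and chr2:215436069-215436318 for FN1. Capitals mark the cAMP response element TGACGTCA and the CCAAT box, which reads ATTGG on the other strand.
CDH2: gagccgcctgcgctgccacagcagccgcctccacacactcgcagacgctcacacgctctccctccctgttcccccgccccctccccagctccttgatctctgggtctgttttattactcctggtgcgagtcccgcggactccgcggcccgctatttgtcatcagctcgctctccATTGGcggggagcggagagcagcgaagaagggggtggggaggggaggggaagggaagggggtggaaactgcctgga
FN1: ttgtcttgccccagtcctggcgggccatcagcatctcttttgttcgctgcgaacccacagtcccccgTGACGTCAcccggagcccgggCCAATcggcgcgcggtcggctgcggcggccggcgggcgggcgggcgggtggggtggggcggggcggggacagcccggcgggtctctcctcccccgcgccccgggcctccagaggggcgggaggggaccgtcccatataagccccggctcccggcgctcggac

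The FN1 window holds TGACGTCA, first base 183 bases before the start, and CCAAT, first base 162 bases before it. The CDH2 window holds the CCAAT box in reverse, 76 bases before the start, and no TGACGTCA. Searched on both strands, TGACGTCA was in 1.65% and CCAAT in 32.0% of 35116 RefSeq promoter windows of this length. The motif CAGGTG, the E-box that SNAI and ZEB factors are known to bind, is in neither window and was in 17.5% of all windows. The wider E-box pattern CANNTG, which includes CAGGTG, is also in neither and was in 61.8%. The FN1 window is 76.4% G and C and the CDH2 window 66%, against a median of 58% over all windows.

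**Figure D1:**
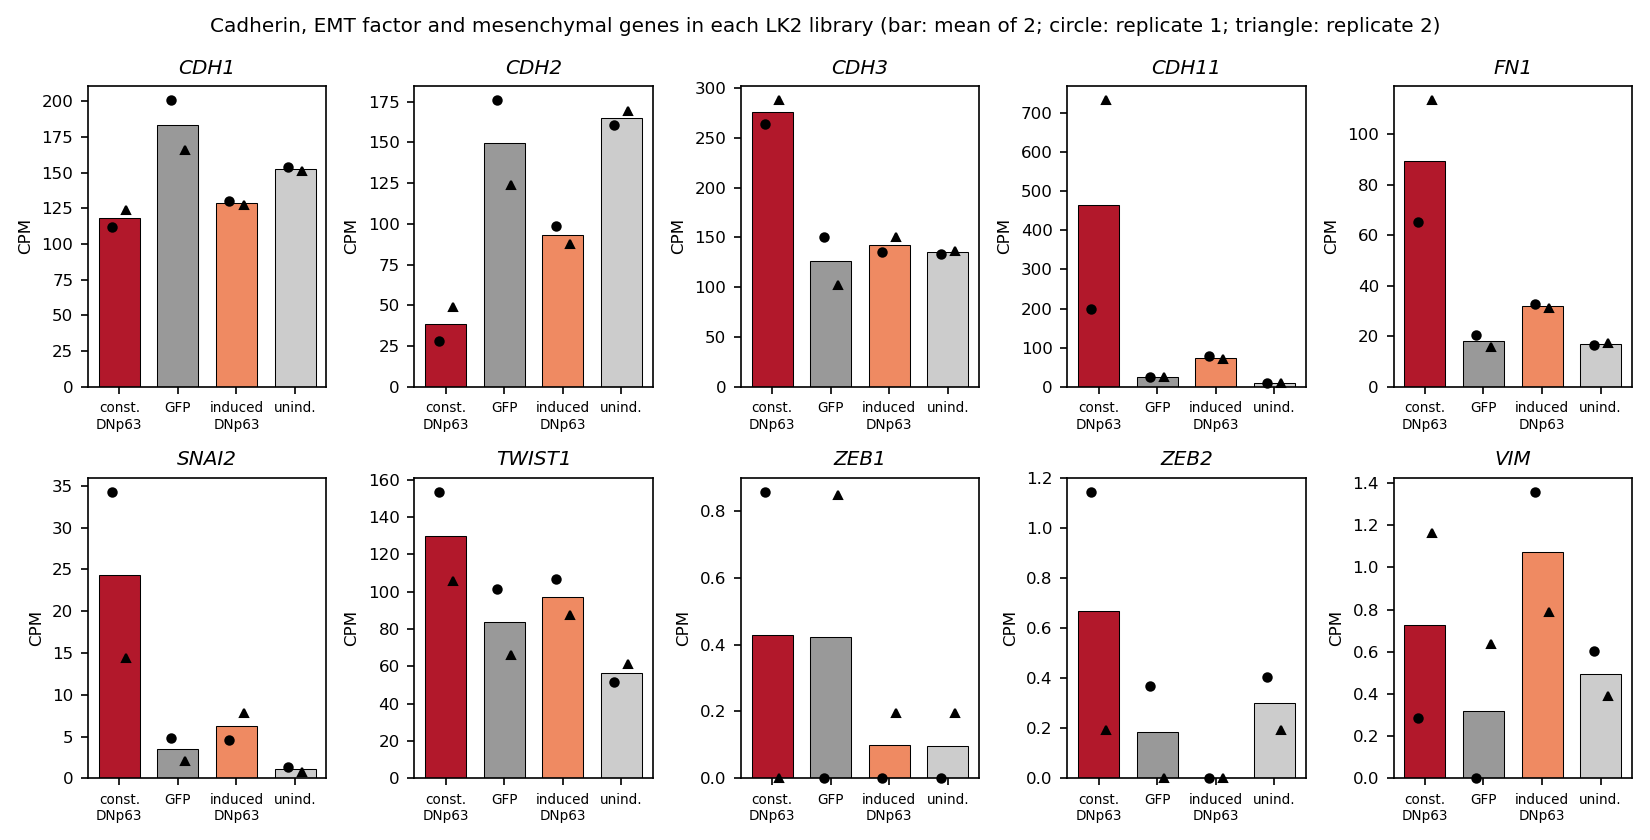
Level in CPM of the 10 genes in each group; bars are means of 2 libraries, circles replicate 1 and triangles replicate 2, and each panel has its own axis. CDH1 and CDH2 are lower and CDH11, FN1, SNAI2 and TWIST1 are higher in both libraries with DNp63 than in both controls of the same system. How many of all tested genes separate in this way was not counted. ZEB1, ZEB2 and VIM reach at most 1.36 CPM.

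In constitutive DNp63 cells CDH2 fell, CDH3 and CDH11 rose, and CDH1 did not pass the test. Of the 10 genes 7 had enough counts to be tested. Of these 7, constitutive DNp63 against GFP gave 4 higher (CDH3, CDH11, SNAI2 and FN1), where 4.17% of all tested genes were called higher, and 1 lower (CDH2), where 3.99% were called lower, by edgeR's quasi-likelihood test at an adjusted p below 0.05. With only the 4 libraries of the constitutive system in the fit, 3 remained called, CDH2, CDH11 and FN1, where 2.36% of genes were called in either direction. The same 3 were called without GFP replicate 2.

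CDH1, the epithelial cadherin, had 112 and 124 CPM in constitutive DNp63 libraries and 201 and 166 CPM in GFP libraries. Both DNp63 libraries were below both GFP libraries, by a small margin. The log2 fold change was −0.63 ± 0.18 (SE, n = 2 per group) with an adjusted p of 0.0587, just short of the call; DESeq2 gave an adjusted p of 0.0484, no filter on low counts 0.0451, the constitutive libraries alone 0.327 and leaving out DNp63 replicate 2 0.0483. CDH1 thus remained at 118 ± 8.44 CPM (SD, n = 2) with constitutive DNp63, against 183 ± 24.8 CPM with GFP.

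CDH2, the neural and mesenchymal cadherin, had 28.3 and 49.3 CPM in constitutive DNp63 libraries, against 176 and 124 CPM in GFP libraries. The groups were far apart, and the first vector pair (pLEX_306) gave a ratio of 0.161 and the second (pLEX_307) 0.398. CDH2 fell by 1.93 on the log2 scale (SE 0.27; adjusted p = 0.00195), that is 3.82-fold lower, and kept its call with each library left out in turn.

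CDH3, the basal epithelial cadherin that is the immediate neighbour of CDH1 on chromosome 16 (RefSeq, GRCh38.p14), had 264 and 288 CPM in constitutive DNp63 libraries and 150.4 and 102 CPM in GFP libraries. Its rise was 1.13 ± 0.21 (log2; adjusted p = 0.00911). The call was lost without GFP replicate 2, with 0.86 and an adjusted p of 0.0513, and with the constitutive libraries alone (0.106).

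CDH11, the mesenchymal cadherin, had 198 and 733 CPM in constitutive DNp63 libraries, against 26.2 and 25.6 CPM in GFP libraries. The DNp63 libraries differed from each other 3.69-fold, in the same order as their TP63 level, and both exceeded both GFP libraries. Of the other tested members, CDH1, CDH2, CDH3 and FN1 also ran in that order, and SNAI2 and TWIST1 in the reverse order. These DNp63 libraries also differ in vector, so TP63 level and vector cannot be told apart. The CDH11 ratio was 7.56 in the pLEX_306 pair and 28.6 in the pLEX_307 pair. The log2 fold change was 4.17 ± 0.50 (adjusted p = 0.000804), which was 2.94 without DNp63 replicate 2, and it was called with each library left out in turn.

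Per transcript length, CDH1, CDH2 and CDH3 shared the cadherin pool in control cells about evenly, and CDH11 was minor. As shares of the summed CPM per kb of these 4 genes, CDH2 made up 5.73 ± 0.145% (SD, n = 2) with constitutive DNp63 and 33.9 ± 1.5% with GFP. CDH11 made up 39.4 ± 19.1% with constitutive DNp63 and 3.80 ± 0.706% with GFP. CDH3 made up 38.4 ± 13.4% with constitutive DNp63 and 25.1 ± 1.73% with GFP, and CDH1 16.5 ± 5.6% with constitutive DNp63 and 37.2 ± 2.52% with GFP. The ratio of CDH1 to CDH2 counts within a library, which needs no scaling, was 3.96 and 2.52 with constitutive DNp63 and 1.14 and 1.34 with GFP. The E-to-N-cadherin ratio was therefore higher in both constitutive DNp63 libraries while CDH1 itself was not higher. Lengths are those of the longest principal coding transcript in GENCODE 29, so shares rest on that choice of transcript.

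**Figure D2:**
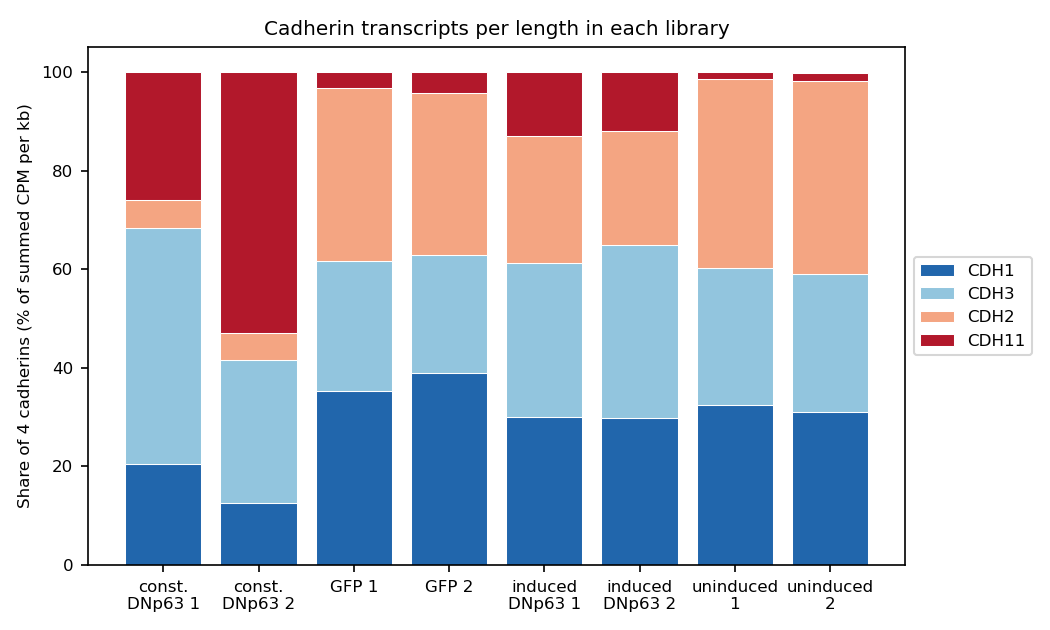
Share of each cadherin gene in the summed CPM per kb of CDH1, CDH3, CDH2 and CDH11, in percent, for each of the 8 libraries. CDH2 takes 5.73% on average with constitutive DNp63 against 33.9% with GFP, and CDH11 takes 39.4% with constitutive DNp63, with a wide difference between its 2 libraries.

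In induced cells CDH11 rose, and CDH1, CDH2 and CDH3 were not called. With the spread shared by all 8 libraries, 1 of the 7 tested members was called higher (CDH11), where 0.236% of genes were called higher, and none lower, where 0.0488% were called lower; of all tested genes 6.04% had an unadjusted p below 0.05, and of the members 5 did. With only the 4 libraries of the inducible system in the fit, whose replicates lie closer together, 5 members were called (CDH2, CDH11, SNAI2, TWIST1 and FN1), where 6.43% of genes were called. DESeq2 called 2, CDH11 and SNAI2, where it called 0.894% of genes.

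CDH11 had 78.6 and 71.2 CPM in induced libraries and 9.26 and 10.9 CPM in uninduced libraries. The replicates were close and the groups far apart. The rise of CDH11 was 2.88 ± 0.49 on the log2 scale (adjusted p = 0.0458). It was no longer called when either GFP, either uninduced or either induced library was left out, with adjusted p values of 0.0701 to 0.585 and log2 fold changes of 2.78 to 3.01.

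CDH2 had 98.7 and 87.9 CPM in induced libraries, against 161 and 169 CPM in uninduced libraries. At −0.82 ± 0.26 on the log2 scale it was not called across all libraries (adjusted p = 0.419) and was called in the inducible libraries alone (adjusted p = 1.09e-05). CDH1 had 129.9 and 128 CPM in induced libraries and 154 and 151 CPM in uninduced libraries, a log2 fold change of −0.24 ± 0.18 (adjusted p = 0.968). CDH3 had 135 and 150.5 CPM in induced libraries and 133 and 137 CPM in uninduced libraries, with overlapping groups and a log2 fold change of 0.08 ± 0.21 (adjusted p = 0.995). Within a library the ratio of CDH1 to CDH2 counts was 1.32 and 1.45 induced and 0.956 and 0.893 uninduced. CDH2 made up 24.5 ± 1.82% of the 4 cadherins per kb in induced cells and 38.8 ± 0.736% in uninduced cells, and CDH11 12.4 ± 0.772% in induced cells and 1.5 ± 0.146% in uninduced cells.

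Among the 4 transcription factors of the set, SNAI2 was the one that rose with constitutive DNp63, TWIST1 was abundant in every library, and ZEB1 and ZEB2 were close to absent. SNAI2, the zinc finger repressor Slug, had 34.3 and 14.4 CPM (120 and 74 counts) in constitutive DNp63 libraries, against 4.80 and 2.12 CPM (13 and 10 counts) in GFP libraries. Both DNp63 libraries exceeded both GFP libraries, and the pLEX_306 library was the higher of the pair in both groups. The ratio was 7.14 and 6.78 in the 2 vector pairs. The log2 fold change was 2.88 ± 0.57 (adjusted p = 0.0119); it was 2.30 without GFP replicate 2, where the call was lost (adjusted p = 0.121), and with the constitutive libraries alone the adjusted p was 0.0514. In induced libraries SNAI2 had 37 and 40 counts (4.57 and 7.87 CPM), against 7 and 8 counts (1.41 and 0.778 CPM) in uninduced libraries. This was a log2 fold change of 2.56 ± 0.63, with an adjusted p of 0.218 across all libraries and 0.00239 in the inducible libraries alone.

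TWIST1, a basic helix-loop-helix factor of mesoderm and neural crest, had 153 and 106 CPM in constitutive DNp63 libraries and 101 and 66.3 CPM in GFP libraries. The groups were separated by a narrow gap, since the lower DNp63 library stood beside the higher GFP library, and the log2 fold change was 0.64 ± 0.26 and not called (adjusted p = 0.172). In the inducible system it had 107 and 87.5 CPM in induced libraries and 51.3 and 61.4 CPM in uninduced libraries, a log2 fold change of 0.78 ± 0.26 (adjusted p = 0.475 across all libraries, 0.000255 in the inducible libraries alone). Per transcript length TWIST1 stood at 77.8 ± 20.2 CPM per kb (SD, n = 2) with constitutive DNp63 and 50.3 ± 14.8 CPM per kb with GFP. SNAI2 stood at 10.0 ± 5.81 CPM per kb with constitutive DNp63 and 1.43 ± 0.782 CPM per kb with GFP, so TWIST1 had the higher level of the pair in both.

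ZEB1 and ZEB2, zinc finger repressors of CDH1, had 0 to 4 counts in each library and did not pass the filter. ZEB1 summed to 3 counts with constitutive DNp63 and 4 with GFP, and to 1 induced and 2 uninduced. ZEB2 summed to 5 counts with constitutive DNp63 and 1 with GFP, and to 0 induced, which allows up to 0.228 CPM, and 4 uninduced. The interval of the constitutive ratio, which covers counting error only, was 0.0943 to 3.80 for ZEB1 and 0.480 to 203 for ZEB2 (95% exact), so a change of either was not detectable at this depth. ZEB1-AS1, an antisense partner that touches exons of ZEB1 in GENCODE 29, had 103 counts in all, and with no strand setting given its reads and those of ZEB1 cannot be told apart.

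Of the mesenchymal products FN1 rose with constitutive DNp63 and VIM was nearly silent. FN1, the matrix protein fibronectin, had 65.4 and 113 CPM in constitutive DNp63 libraries, against 20.7 and 15.9 CPM in GFP libraries. All DNp63 values lay above all GFP values, with a ratio of 3.16 in the pLEX_306 pair and 7.14 in the pLEX_307 pair. The rise of FN1 was 2.31 ± 0.29 (log2; adjusted p = 0.00107), and it was called with each library left out in turn. In the inducible system FN1 had 32.7 and 31.1 CPM in induced libraries and 16.5 and 17.3 CPM in uninduced libraries, a log2 fold change of 0.91 ± 0.28 (adjusted p = 0.382 across all libraries, 0.00192 in the inducible libraries alone).

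VIM, the vimentin filament gene, had 1 and 6 counts in constitutive DNp63 libraries and 0 and 3 counts in GFP libraries. It had 11 and 4 counts in induced libraries and 3 and 4 counts in uninduced libraries. It did not pass the filter and reached at most 1.36 CPM in any library. The ratio of summed counts was 2.00 (95% exact interval 0.457 to 12) with constitutive DNp63 over GFP and 2.48 (0.952 to 7.19) induced over uninduced, both spanning 1. As in any bulk measurement, fewer cells that make a transcript and less transcript per cell cannot be told apart.

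**Figure D3:**
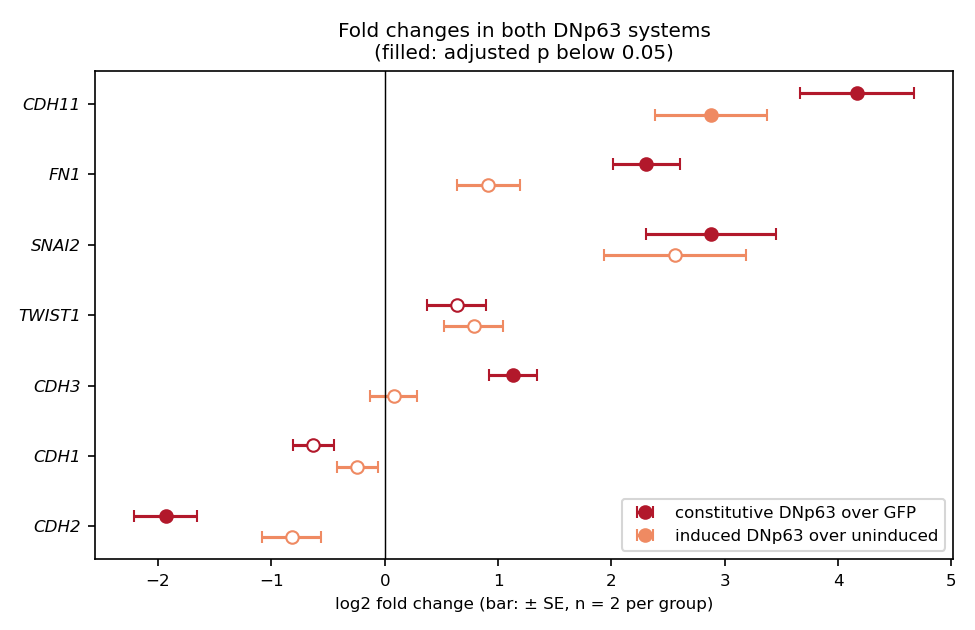
Log2 fold change of the 7 tested members, with the SE (n = 2 libraries per group), for constitutive DNp63 over GFP and induced DNp63 over uninduced; filled points have an adjusted p below 0.05 with the spread shared by all libraries. CDH11, FN1, SNAI2, TWIST1 and CDH3 lie above 0 and CDH1 and CDH2 below it in both systems, CDH3 by 0.08 when induced (−0.00057 without induced replicate 2).

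Averaged over both systems, 6 of the 7 tested members were called, 5 higher against 3.26% of all tested genes and 1 lower against 2.41%. Beyond the members called with constitutive DNp63, the average added TWIST1, at 0.71 ± 0.18 (adjusted p = 0.0492), which lost its call without GFP replicate 2, DNp63 replicate 1 or any of the 4 inducible libraries (0.0733 to 0.248). CDH3, at 0.61 ± 0.15 (adjusted p = 0.039), lost it without GFP replicate 2 or any of the 4 inducible libraries (0.0871 to 0.191). CDH2, CDH11, SNAI2 and FN1 were called with each library left out, and CDH1, at −0.44 ± 0.13, was not called (adjusted p = 0.0771; 0.0447 without DNp63 replicate 2).

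No member was called by edgeR for the difference between the systems, where 0.545% of all tested genes were. DESeq2 also called none, where it called 2.15% of all tested genes. At an unadjusted p below 0.05 stood 3 members, where 12.2% of all tested genes did. FN1 had −1.40 ± 0.40 (induced minus constitutive effect, log2; adjusted p = 0.184), CDH3 −1.05 ± 0.30 (0.176) and CDH2 1.11 ± 0.37 (0.262). In each the induced value was nearer 0. Among the tested members only TWIST1 had the larger log2 fold change when induced, 0.78 against 0.64 with constitutive DNp63. The induced level of TP63 was 417 ± 6.89 CPM (SD, n = 2), against 2833 ± 1389.9 CPM in constitutive DNp63 cells. Whether the TP63 level has a part in these differences was not tested, and the systems also differ in vector and doxycycline. CDH11, at −1.29 ± 0.67 (0.484), rests on which constitutive DNp63 library is used: without DNp63 replicate 1 it was −1.94 and called (0.00832), and without replicate 2 it was −0.06. Single libraries also brought FN1 to a call (without DNp63 replicate 1, 0.0244), CDH2 (without DNp63 replicate 2, 0.0265) and CDH3 (without GFP replicate 1, 0.0358).

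Between the control groups no member was called, by edgeR or by DESeq2. Of all tested genes edgeR called 0.00813% and DESeq2 0.463%. At an unadjusted p below 0.05 stood 2 members, where 9.10% of all tested genes did. CDH11 averaged 10.1 ± 1.15 CPM in uninduced cells and 25.9 ± 0.431 CPM in GFP cells (SD, n = 2 each), a log2 difference of −1.35 ± 0.50 (adjusted p = 0.471, and 0.0242 and 0.0336 when DNp63 replicate 1 or 2 was left out). SNAI2 averaged 1.09 ± 0.446 CPM in uninduced cells and 3.46 ± 1.90 CPM in GFP cells, a difference of −1.65 ± 0.71 (adjusted p = 0.518). TP63 was higher in the uninduced libraries, at 12.7 and 14.8 CPM, against 0.739 and 1.91 CPM with GFP, a difference that was not called (3.23; adjusted p = 0.165). The levels of induced CDH11 (71.2 to 78.6 CPM) and SNAI2 (4.57 to 7.87 CPM) were below those with constitutive DNp63, while TWIST1 reached 87.5 to 107 CPM induced, which overlaps the 106 to 153 CPM with constitutive DNp63.

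Other genes of the same biology were described from 6 lists, by the number of tested members called at the same threshold. Of 15 tested partners of classical cadherins at the adherens junction, 2 rose with constitutive DNp63 and none fell, where 4.17% of all tested genes were called higher and 3.99% lower. None was called when induced, where the shares were 0.236% and 0.0488%. These were CTNNB1, beta-catenin, which links cadherins to the cytoskeleton (0.93 on the log2 scale; adjusted p = 0.00961; not called without GFP replicate 2, 0.0513), and PVRL1, the adhesion protein nectin-1 (1.66; 0.0114). The median of the list was 0.14, against 0.01 over all tested genes. Of 19 other cadherin genes only CDH6, CDH8, CDH13 and CDH24 had enough counts to be tested, and CDH13, the membrane-anchored T-cadherin, was called higher with constitutive DNp63. CDH13 summed to 71 counts in constitutive DNp63 cells, against 1 count in GFP cells. The ratio was 60.9 (95% exact interval 10.6 to 2440, counting error only). The constitutive DNp63 libraries had 16.0 and 2.91 CPM, and no other library exceeded 1.85 CPM. CDH13 thus passed the filter only through the group where it was high, and its call is a description only. Uninduced cells had 21 counts, 10.2 times the GFP level (1.64 to 423). The gene was named after its values were seen.

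Of 14 other EMT factors tested, 1 rose and 2 fell with constitutive DNp63 (over all tested genes, 4.17% and 3.99%) and none was called when induced (0.236% and 0.0488%), with medians of −0.42 (constitutive) and 0.08 (induced). The list mixes EMT factors with inhibitors of the ID family, so its counts and medians have no single direction. ID2, an inhibitor of basic helix-loop-helix factors, rose by 1.12 (log2; adjusted p = 0.0113), with 206 ± 39.5 CPM under constitutive DNp63 and 94.6 ± 23.5 CPM with GFP (SD, n = 2). Its relative ID3 fell by 2.098 (0.000345) and TCF4, the E-protein E2-2, fell by 1.43 (0.00513). SNAI1, the closest relative of SNAI2, had 0.959 CPM with constitutive DNp63 and 3.36 CPM with GFP on average, a log2 fold change of −1.82 that was not called (adjusted p = 0.115; named after its values were seen). TWIST2 and FOXC2 had no count.

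The regulators that hold the epithelial state were split. Of the 22 described here, 4 rose and 5 fell with constitutive DNp63 (over all tested genes, 4.17% and 3.99%), and none of these 22 was called when induced (lowest adjusted p 0.126). OVOL1, a zinc finger repressor of EMT factors, rose by 2.95 with constitutive DNp63 (adjusted p = 0.00187). FOXA2, an endoderm factor, fell by 3.01 (0.000341), and ELF3, an epithelial ETS factor, fell by 1.96 (0.00342). The median of the 22 was −0.21 with constitutive DNp63 and 0.07 induced. EHF, among the 4 that rose, had 19.1 and 6.79 CPM with constitutive DNp63 and at most 1.18 CPM elsewhere. It passed the filter only through that group and was named after its values were seen.

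The wider mesenchymal matrix and cytoskeleton list gave 3 higher and 1 lower of 18 tested with constitutive DNp63 (over all tested genes, 4.17% and 3.99%). None was called when induced (0.236% and 0.0488%), and the medians were 0.72 (constitutive) and 0.08 (induced). S100A4, 1 of the 3, had 9.43 and 2.52 CPM with constitutive DNp63 and at most 0.984 CPM elsewhere. MYL9 had 2.00 and 2.33 CPM there and at most 0.787 CPM elsewhere. LOX, not called, had 13.4 and 7.18 CPM there, 3.69 CPM in GFP replicate 1 and at most 1.56 CPM elsewhere. COL5A2, not called, had 2.00 and 9.70 CPM there, 2.59 CPM in GFP replicate 1 and at most 1.61 CPM elsewhere. S100A4, MYL9, LOX and COL5A2 passed the filter only with that group, which lifts the count and the median. The 1 lower was TGFBI, at −1.72 (log2; adjusted p = 0.00868). S100A4, MYL9, LOX, COL5A2 and TGFBI were named after their values were seen. MMP14, a membrane-bound matrix protease, rose by 2.30 (adjusted p = 0.000146), and MMP2, the gelatinase that MMP14 activates, by 0.92 (0.0302; not called without 6 of the 8 libraries, up to 0.165). THBS1, the matrix protein thrombospondin-1, had a log2 fold change of −3.03 with constitutive DNp63 that was not called (0.0739), and was −0.02 without GFP replicate 2 and −3.88 and called without GFP replicate 1 (0.00341); its GFP libraries stood at 3.33 and 49.1 CPM. Of the 33 genes of this list 15 did not pass the filter, among them COL3A1, FAP and POSTN with no count, and SPARC and PDGFRB with 2 counts each in all libraries. Of 8 tested fibronectin receptors and partners, 3 rose with constitutive DNp63 and none fell (over all tested genes, 4.17% and 3.99%), with a median of 1.10. None was called when induced (0.236% and 0.0488%). ITGA5, not called and named after its values were seen, had 15.1 and 3.69 CPM with constitutive DNp63. Elsewhere ITGA5 had at most 1.85 CPM, so it passed the filter only through that group. ITGA3, an integrin chain of laminin receptors, rose by 3.001 (0.000186) and ITGB5 by 0.99 (0.013; 0.0887 without GFP replicate 2). ITGB1, the beta chain that pairs with many alpha chains, rose by 0.79 (0.0324) and was named after its values were seen. With the constitutive libraries alone, CTNNB1, PVRL1, ID2, TCF4, MMP2 and ITGB5 were not called (0.0682 to 0.179).

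**Figure D4:**
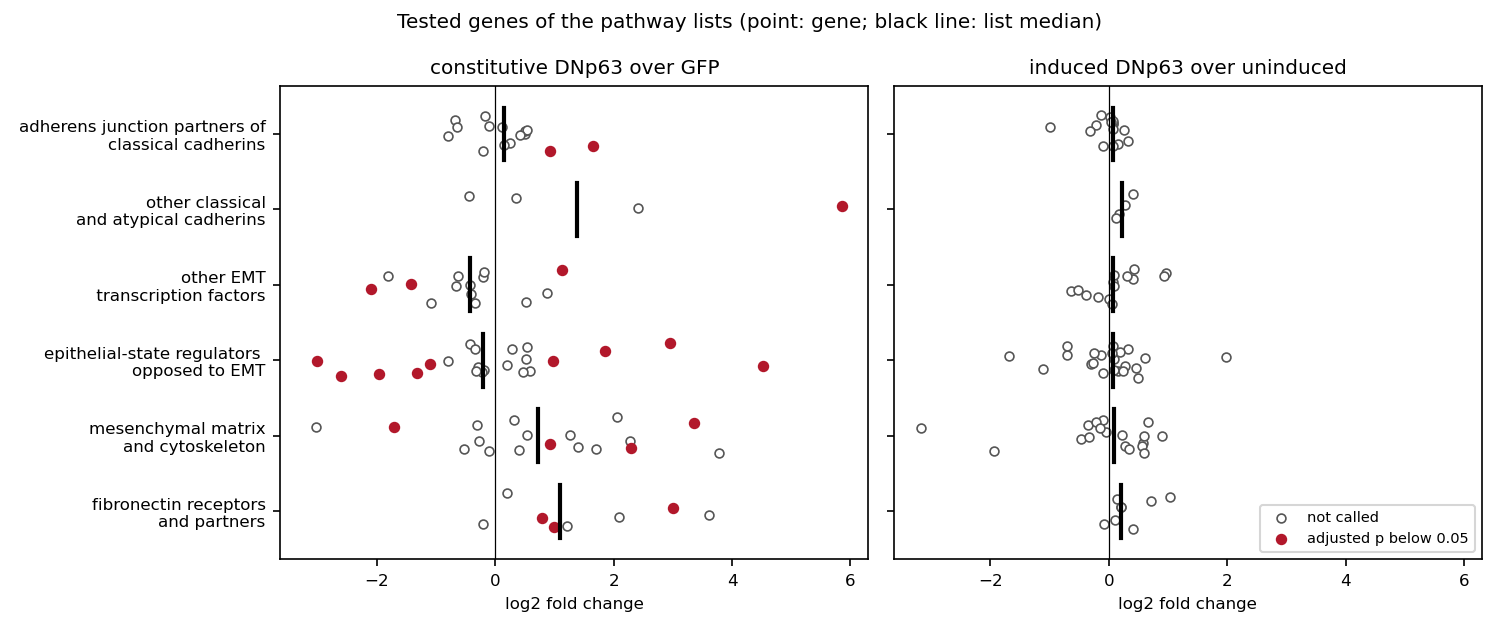
Log2 fold change of the tested genes described from the 6 pathway lists for constitutive DNp63 over GFP (left) and induced DNp63 over uninduced (right); red points have an adjusted p below 0.05 and black lines are list medians. Epithelial-state regulators lie on both sides of 0 with constitutive DNp63, 4 called higher and 5 called lower, and no point shown is called when induced.

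The genes whose levels followed members most closely over the 8 libraries were sought among 10105 genes that averaged 5 CPM or more, by Pearson's correlation of log2 CPM, as a description of libraries that share controls and differ in depth. For CDH2 these were DPYSL3, a growth cone protein gene (r = 0.992), DIP2C (0.99) and the tetraspanin gene TSPAN5 (0.989). For CDH11 they were ZNF629 (0.991), the kinase gene SGK1 (0.99) and the secreted protein gene CTHRC1 (0.989), and for FN1 they were CLCA2 (0.983), the sulfatase gene ARSA (0.983) and ITM2B (0.981). For SNAI2 they were TSKU (0.985), MMP2 (0.978) and CYTH3 (0.975). Among the members, CDH11 and FN1 had r = 0.969 and CDH2 and SNAI2 r = −0.907.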

How the data were processed

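RNA of 8 LK2 libraries was polyA-selected and sequenced from both ends for 38 bp with a directional kit, per the labels' protocols. The authors deposited unnormalized read counts by gene symbol. Per the submitters' processing notes, TopHat2 2.1, HTSeq, SAMtools and DESeq2 were used with hg19; for their annotation and strand setting, nothing is given in the sources used here. Genes overlapping a member on the other strand, as annotated in GENCODE 29 for CDH1, CDH2, CDH3, TWIST1, ZEB1, ZEB2 and VIM, could share its reads.

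Genes were kept by edgeR's filterByExpr (minimum count 10) and scaled by TMM. Group means with 1 common spread were estimated in R 4.3.3 by edgeR 4.0.16, using its legacy quasi-likelihood, with two-sided tests and Benjamini-Hochberg adjustment over all 12303 tested genes. The script was tested on simulated data. CPM uses scaled library sizes; log2 CPM uses a prior count of 2. Groups with few counts are compared by ratios of summed counts with 95% exact intervals, which cover counting error only; 3 counts are 0.292 to 1.11 CPM in 1 library. Alternatives were RLE scaling, no filter, DESeq2 1.42.0, newer edgeR estimates, a replicate block, each system alone, and each library left out. Without both libraries of 1 constitutive vector was added after seeing the data.

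The members and lists were chosen with earlier results of these data known. Named were all members, up to 4 called genes per list with the smallest p in the average comparison, and the 3 genes most alike to 4 members. Of the listed genes, 1 tested gene of the epithelial regulator list and 1 immune marker are not reported here, and that list's counts and median leave the gene out.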

Additional observations from a re-analysis of the deposited data

Results flagged for a closer look

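Between the systems, 5 of the genes named here differed in their DNp63 effect by the test of the difference itself (edgeR, adjusted over all tested genes; induced minus constitutive, log2). TP63 had −5.99 (adjusted p = 0.00378). FOXA2 had 2.30 (0.0379), with −0.71 induced and −3.01 constitutive, and ID3 had 1.71 (0.0374), with −0.39 induced and −2.098 constitutive. ITGA3 had −1.97 (0.0415), with 1.03 induced and 3.001 constitutive, and MMP14 had −1.74 (0.027), with 0.55 induced and 2.30 constitutive. The FOXA2, ID3, ITGA3 and MMP14 calls were lost without GFP replicate 2 or any of the 4 inducible libraries, with adjusted p values up to 0.272, 0.287, 0.331 and 0.223. In each of these the induced value was the smaller in size, and TP63 was also lower in induced than in constitutive DNp63 cells. Its part in these differences was not tested.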

How the results depend on the processing

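The main fit called 5 members (constitutive, 8.16% of all genes) and 6 (average, 5.67%). RLE scaling, no filter, DESeq2, newer edgeR estimates and the replicate block each gave 5 or 6 (constitutive) and 6 (average). Over these the share of all genes called ran from 8.17% to 11.4% (constitutive) and from 5.68% to 8.45% (average). The constitutive libraries alone gave 3 (2.36%). CDH1 and TWIST1, not called with constitutive DNp63 in the main fit, were at −0.63 and 0.64 there. Without the pLEX_306 libraries they were at −0.42 and 0.67, and without the pLEX_307 libraries at −0.85 and 0.59. With single libraries left out the number of all genes called changed in every comparison, and so did the count of called members. For induced DNp63 (1 called, and 0.284% of all genes) it was 3 with no filter (1.33%), 2 with DESeq2 (0.894%), 2 with the replicate block (0.707%), 5 with the inducible libraries alone (6.43%), and 5 without the pLEX_306 (6.46%) or the pLEX_307 libraries (6.38%). For the difference (0, and 0.545% of all genes) it was 3 with no filter (3.07%), 3 without the pLEX_306 libraries (13.3%) and 3 without the pLEX_307 libraries (12.6%). For the control groups (0, and 0.00813%) it was 1 with no filter (1.35%), 1 without the pLEX_306 libraries (7.57%) and 3 without the pLEX_307 libraries (13.3%). Without a vector's libraries each constitutive group has 1 library, assumed to vary like the inducible ones. The cause of calls gained or lost was not tested.

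Signs turned only for values that were not called. For the difference, SNAI2 ran from −0.93 to 0.43 (0.26, 0.07, 0.43 and 0.04 where turned) and TWIST1 from −0.18 to 0.44 (−0.18, −0.11 and −0.00222 where turned) with single libraries left out. For the control groups, CDH2 ran from −0.0911 to 0.41, CDH3 from −0.155 to 0.40 and FN1 from −0.29 to 0.0932. Without the pLEX_307 libraries CDH2 was −0.0827 and CDH3 −0.147, and without the pLEX_306 libraries FN1 was 0.0949. Induced CDH3 ran from −0.00057 to 0.15.

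In the constitutive system the replicate number is also the vector, and deviations of same-numbered libraries correlated at 0.22 between constitutive DNp63 and GFP. In the other pairs of groups the number names no shared item, and the correlation was −0.0334 between induced and uninduced, −0.0923 between uninduced and GFP and −0.00361 between induced and constitutive DNp63. The replicate block changed 1 member call, induced SNAI2 (adjusted p = 0.0345). It moved the calls over all genes from 35 to 87 (induced), 1004 to 1400 (constitutive), 697 to 1040 (average) and 67 to 270 (difference). For the control groups the calls went from 1 to 0, but that block fit held the GFP and uninduced libraries only. The block and the smaller set of libraries cannot be told apart there. RLE scaling shifted the median over all genes by −0.00461 to 0.00304.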
